A study of Mus musculus with 6 samples.

Results

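Tnf and Il6 encode cytokines, and Ptgs2 encodes an enzyme of prostaglandin synthesis. Transcripts of these 3 genes, called mediators here, were followed over 3 paired experiments in the early stage of osteoclastogenesis (OCG). All 3 were higher with sRANKL in every experiment. Il6 was 7.90-fold higher, Ptgs2 5.94-fold and Tnf 3.56-fold. The members were taken by symbol from the authors' deposited list of changed genes, which pairs 522 genes with names. That list had been selected on the same arrays and the same contrast, for probe sets changed at least 2-fold. The differences between the groups are therefore given as a description, without a test, and support nothing by themselves. Each of the 3 genes had 1 probe set.

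Transcripts were quantified on 6 Affymetrix GeneChip arrays (Mouse Gene 1.0 ST), 1 per dish, from 3 independent experiments. In each experiment, bone marrow of 3 wild-type SV129/BL6 mice was pooled, and the osteoclast precursors isolated from the pool, which had all been kept in 10 ng/ml M-CSF for 48 hours, were divided between a pair of dishes. Both dishes of a pair contained M-CSF at 20 ng/ml, and sRANKL at 200 ng/ml was added to 1 of them. RNA was taken on day 2. The sample records give no age for the mice, and the methods give only a general range of ages for the wild-type mice used in cell cultures. M-CSF sustains the survival and growth of macrophage precursors, while RANKL acts through its receptor RANK and commits them to the osteoclast fate. The sRANKL was purified from a construct in a bacterial expression vector, and none of the 6 dishes received such a preparation without sRANKL, so the effects of sRANKL and of anything else in the preparation cannot be told apart. The cells were labelled monocytes. Of 14 listed monocyte and macrophage markers, 2 had a name in the deposited list (Ccr2 and Apoe), so the label could be checked in part only. Each dish was a bulk culture, in which fewer cells of a type and less RNA per cell cannot be told apart.

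The 3 mediators act at different points of one network. TNF, a cytokine made mainly by macrophages, signals through its own receptors and TRAF adaptors to NF-kB, and can act together with RANKL in osteoclast formation. IL-6 signals through the IL-6 receptor and the shared chain gp130 to JAK kinases and STAT3, with SOCS3 as an inducible brake. Ptgs2 encodes cyclooxygenase-2, the inducible enzyme that commits arachidonic acid to prostaglandins. PGE2, the product of the terminal synthase Ptges, is known to promote bone resorption, in large part through cells of the osteoblast lineage. All 3 genes are inducible in stimulated macrophages.

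The genes lie on different chromosomes. In the deposited list, whose genome build is not given in the sources used here, Tnf (probe set 10450501, Entrez 21926) spans bases 35336320 to 35338949 of chromosome 17 (minus strand). Il6 (probe set 10520452, Entrez 16193) spans bases 30339684 to 30346508 of chromosome 5 (plus strand). Ptgs2 (probe set 10350516, Entrez 19225) spans bases 151947230 to 151955147 of chromosome 1 (plus strand). Their promoters are shown as background to the 3 genes. The 250 bases before each RefSeq gene start follow, 5′ to 3′ on the strand of the gene, in GRCm38.p6. They are chr17:35202008-35202257 for Tnf, chr5:30012864-30013113 for Il6 and chr1:150099781-150100030 for Ptgs2. Capitals mark the matches to any of 5 short motifs.
Tnf: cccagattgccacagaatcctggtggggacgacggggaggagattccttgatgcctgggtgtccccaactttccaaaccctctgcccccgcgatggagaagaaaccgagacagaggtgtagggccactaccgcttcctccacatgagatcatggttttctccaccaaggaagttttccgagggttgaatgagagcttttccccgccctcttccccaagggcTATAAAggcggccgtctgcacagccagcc
Il6: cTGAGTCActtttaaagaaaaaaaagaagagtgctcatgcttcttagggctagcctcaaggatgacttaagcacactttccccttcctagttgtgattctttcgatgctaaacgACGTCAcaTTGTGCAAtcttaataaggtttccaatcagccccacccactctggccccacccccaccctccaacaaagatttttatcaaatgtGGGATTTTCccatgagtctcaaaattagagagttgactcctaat
Ptgs2: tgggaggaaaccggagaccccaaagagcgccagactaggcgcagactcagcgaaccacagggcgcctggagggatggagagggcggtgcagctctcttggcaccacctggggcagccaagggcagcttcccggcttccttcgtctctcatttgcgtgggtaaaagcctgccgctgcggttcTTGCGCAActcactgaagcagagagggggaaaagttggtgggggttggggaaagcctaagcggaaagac

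The motifs were searched on both strands in windows of 300 bases, the 250 shown and the 50 after the start. The window of Il6 held 4 of the 5 motifs. An NF-kB form, GGGNNTTTC, lay 44 to 36 bases before the start of Il6, a C/EBP form, TTGNGCAA, 128 to 121 bases before it, a CRE core, ACGTCA, 136 to 131 bases before it, and an AP-1 form, TGANTCA, 249 to 243 bases before it. The window of Ptgs2 held the C/EBP form 69 to 62 bases before the start and the CRE core at bases 13 to 18 after it, outside the stretch shown. The window of Tnf held only a TATA form, TATAAA, 29 to 24 bases before the start. None of these matches overlapped another. Of all 32851 RefSeq windows of the same length, 4.36% held the NF-kB form, 2.94% the C/EBP form, 7.51% the CRE core, 7.81% the AP-1 form and 13.6% the TATA form. Il6 and Ptgs2 thus had the C/EBP form and the CRE core in common, and Tnf had neither in this window. A match of letters is no evidence of binding, and other forms of these motifs were not searched. The motifs were chosen with earlier results of these data, or the sequences, known. Whether the motifs have a part in the levels of the 3 genes was not tested.

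Tnf, the gene of the macrophage cytokine TNF, had an RMA intensity of 408.77, 600.91 and 351.4 with M-CSF alone in Experiments 1, 2 and 3. With sRANKL the intensity of Tnf was 1609.14, 1829.58 and 1322.8. The groups did not overlap, and the lowest array with sRANKL was 2.20-fold above the highest with M-CSF alone. The mean log2 intensity went from 8.79 ± 0.40 (SD, n = 3) to 10.62 ± 0.24 (SD, n = 3). The log2 fold change was 1.83 with a standard error of 0.24. Within single experiments the ratio was 3.94, 3.04 and 3.76, so the smallest ratio was in Experiment 2, in which the dish with M-CSF alone was the brightest of its group. Of the 341 named genes that were higher, Tnf ranked 86 by fold.

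Il6 had an RMA intensity of 32.27, 18.44 and 13.24 with M-CSF alone, and of 190.58, 265 and 76.92 with sRANKL. The groups did not overlap, with a gap of 2.38-fold between the lowest array with sRANKL and the highest with M-CSF alone. The arrays within a group differed more for Il6 than for the other two genes, by 2.44-fold with M-CSF alone and by 3.45-fold with sRANKL. The mean log2 intensity was 4.31 ± 0.65 (SD, n = 3) with M-CSF alone and 7.30 ± 0.92 (SD, n = 3) with sRANKL. The log2 fold change of Il6 was 2.98 with a standard error of 0.50. The ratio was 14.4 in Experiment 2 but 5.91 and 5.81 in Experiments 1 and 3. Without both dishes of Experiment 2 the log2 fold change was 2.55. By fold Il6 ranked 27 of the 341 higher named genes.

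The control values of Il6 were at the bottom of the range of the 2890 deposited probe sets. In Experiment 3 its intensity of 13.24 was the lowest of them on the M-CSF alone array. In Experiments 2 and 1 only 1 and 9 of them were lower. A filter not given here had kept these probe sets, so the rank of Il6 on the whole array is not known. No detection calls were used here, so whether the control values of Il6 lie above the background of the array is not known. The fold of Il6 rests on values whose lower end may not follow the amount of RNA. With sRANKL 939, 1096 and 140 probe sets were below it in Experiments 1, 2 and 3.

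Ptgs2 had an RMA intensity of 120.43, 88.29 and 58.1 with M-CSF alone, and of 748.93, 613.12 and 281.59 with sRANKL. In both groups the order was Experiment 1, then 2, then 3. The groups did not overlap, and the lowest array with sRANKL was 2.34-fold above the highest with M-CSF alone. The mean log2 intensity was 6.41 ± 0.53 (SD, n = 3) with M-CSF alone and 8.98 ± 0.75 (SD, n = 3) with sRANKL. The log2 fold change of Ptgs2 was 2.57 with a standard error of 0.41. The ratio within experiments was 6.22, 6.94 and 4.85, and Ptgs2 ranked 40 of the 341 higher named genes.

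**Figure D1:**
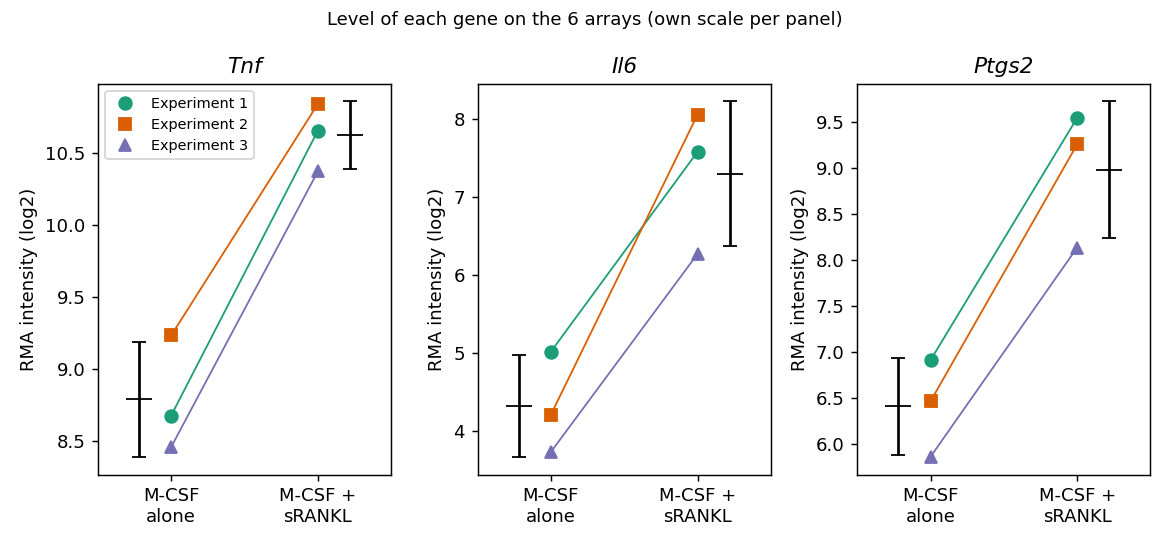
RMA intensity on the log2 scale for Tnf, Il6 and Ptgs2 with M-CSF alone and with M-CSF + sRANKL, each panel on its own scale. Colours and symbols stand for the 3 experiments, lines join the dishes of 1 pool, and black bars give the group mean ± SD (n = 3). Every line goes up, the groups do not overlap in any panel, and the Experiment 3 triangle is the lowest of its group each time.

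All 3 genes were called higher by limma at an adjusted p under 0.05, which 44.9% of the 2859 fitted rows were. In all 3 genes every array with sRANKL was above every array with M-CSF alone, as in 45.2% of the rows. All 3 were both called higher and at least 2-fold higher, as were 16.1%. Nothing can be read from these counts, since the genes have a name only because the authors' list had found them changed. The shares are those of the filtered rows deposited, not of the whole array. Among them, 187 rows repeat the 6 values of another row. The smallest increase on that list was 2.003-fold (Nfkbia), and the largest below 2-fold among the rows off the list was 1.9998-fold. The 3 mediators lay well inside this limit. Over all rows the median log2 fold change was 0.42, and over the named genes 1.17.

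**Figure D2:**
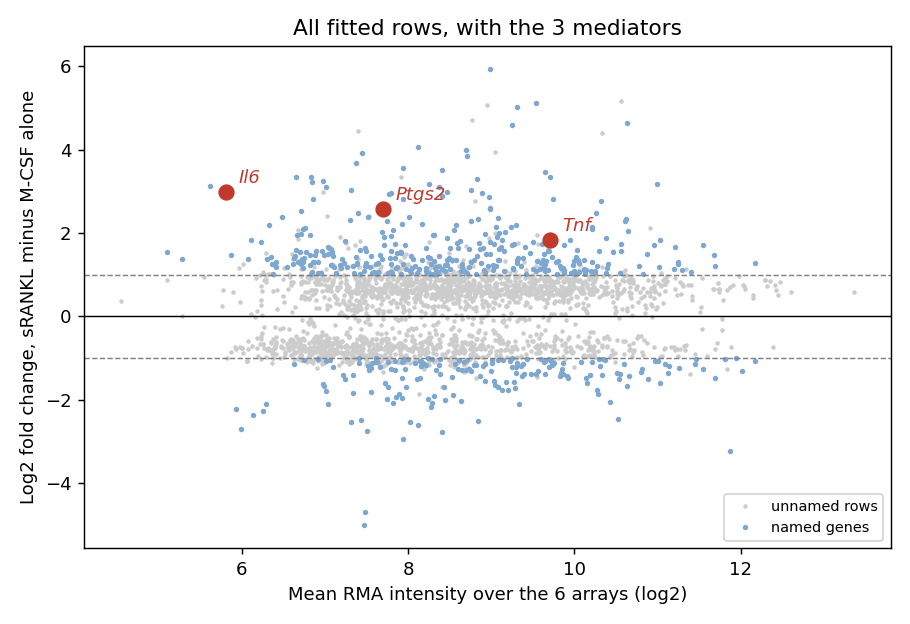
Log2 fold change (M-CSF + sRANKL minus M-CSF alone) against the mean log2 RMA intensity over the 6 arrays, for the 2859 fitted rows. Grey points are unnamed rows, blue points named genes and red points the 3 mediators, and dashed lines mark a 2-fold change. Il6, at 2.98, lies at the dim edge of the cloud, Ptgs2 at 2.57 further right and Tnf at 1.83 among the brighter rows.

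By the fitted fold changes the order was Il6, Ptgs2, Tnf, and it held in part within experiments. The place of Il6 in it rests on control values at the bottom of the deposited range, whose relation to background is not known. The log2 ratio of Ptgs2 exceeded that of Tnf by 0.66, 1.19 and 0.36 in Experiments 1, 2 and 3. Il6 exceeded Tnf by 0.59, 2.24 and 0.63. Between the first 2 in the order no direction was shared by all experiments. Ptgs2 minus Il6 was 0.07 in Experiment 1, -1.05 in Experiment 2 and -0.26 in Experiment 3, so they did not differ beyond the spread between experiments. The experiment-to-experiment SD of the log2 ratio was 0.75 for Il6, 0.27 for Ptgs2 and 0.20 for Tnf.

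The variation between dishes of the same group is not set by the contrast that chose the genes, although the list's p-value limit also uses this spread. After subtraction of the group means, Il6 and Ptgs2 deviated together over the 6 arrays (Pearson r = 0.92, a description over dishes that share pools of cells). Such an r was not particular to this pair. At least 5 other named genes had a higher r with Il6 (up to 0.99), and at least 5 with Ptgs2 (up to 0.99). The share of all gene pairs that reach it was not computed. For Tnf, r was 0.48 against Il6 and 0.52 against Ptgs2, but this order changed when 1 array was left out. With the Experiment 2 control array removed, r was 0.98 for Tnf and Il6, 0.85 for Tnf and Ptgs2 and 0.93 for Il6 and Ptgs2. In Experiment 1 with M-CSF alone, Il6 was 0.70 and Ptgs2 0.50 above its group mean, while Tnf was 0.11 below. In Experiment 2 with M-CSF alone, Tnf was 0.44 above its mean, Ptgs2 0.05 above and Il6 0.11 below. In these 2 control dishes Tnf lay apart from the other two genes.

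Experiment 3 was the lowest of its group for all 3 genes, both with and without sRANKL. With sRANKL the deviations in Experiment 3 were -1.03 for Il6, -0.84 for Ptgs2 and -0.25 for Tnf, and with M-CSF alone -0.59, -0.55 and -0.33. Over all rows Experiment 3 was the lowest in both groups in 11.9%, and among the 1285 rows called higher in 14.5%. The array medians did not share this order: in Experiments 1, 2 and 3 they were, on the log2 scale, 8.32, 8.53 and 8.45 in the sRANKL dishes, against 8.16, 8.44 and 8.31 in their partners. With each array centred on its median, or after quantile normalization, all 3 genes were still lowest in Experiment 3 in both groups. In Experiment 3 the low dish with M-CSF alone thus had a low partner with sRANKL for all 3 genes. This did not hold in general, since Il6 in Experiment 2 deviated by -0.11 with M-CSF alone and by 0.75 with sRANKL. The ratio of Tnf in Experiment 3 was between those of the other experiments. Il6 (5.81) and Ptgs2 (4.85) had their smallest ratio in Experiment 3.

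**Figure D3:**
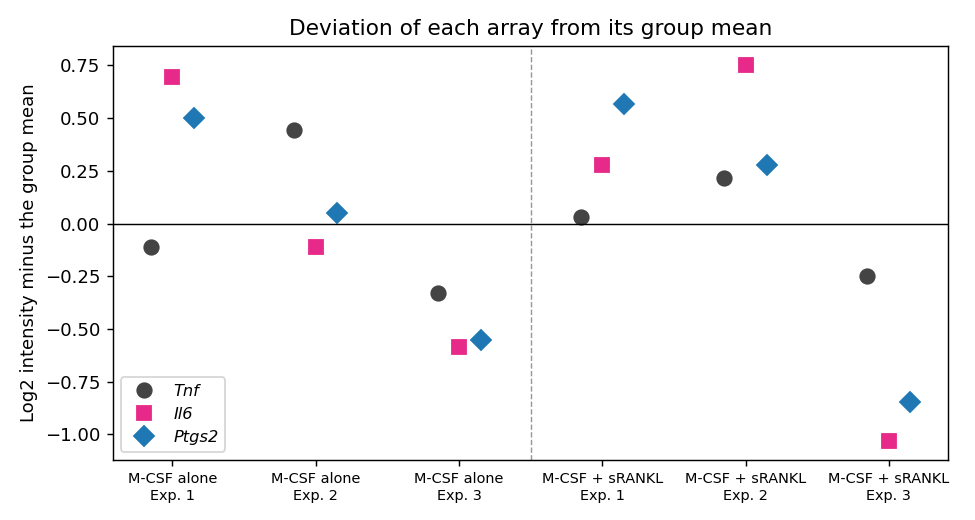
Log2 RMA intensity minus the group mean, for each of the 6 arrays, with circles for Tnf, squares for Il6 and diamonds for Ptgs2. Squares and diamonds lie close on most arrays (r = 0.92), the circle of the Experiment 2 M-CSF alone array stands above them at 0.44, and all symbols of Experiment 3 are below 0.

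The genes most like each mediator were sought among the 522 named genes, by correlation of these deviations over the 6 arrays. For Il6 they were Cacnb3, a calcium channel subunit (r = 0.99), Cd40, a costimulatory receptor of the TNF receptor family (0.98), Il1r1, the signalling IL-1 receptor (0.97), Traf1, an adaptor of TNF receptors (0.96), and Wfdc17 (0.96). For Ptgs2 they were Asb2, a ubiquitin ligase subunit (r = 0.99), H2-DMa of MHC class II peptide loading (0.98), Met, the receptor of hepatocyte growth factor (0.97), Cst7, the cystatin F gene (0.97), and Il1r1 (0.96). Il1r1 stood on both lists. For Tnf they were Acy1, an aminoacylase (r = 0.99), Plk3, a polo-like kinase (0.98), Chn2, a Rac GTPase-activating protein (0.96), Rrp9 of the U3 small nucleolar RNP (0.96), and Ptger3, a PGE2 receptor (0.95). The likest genes of Tnf were none of those of Il6 or Ptgs2. Likeness between dishes went with either direction of change, since Chn2, Ptger3 and H2-DMa were at 0.23, 0.322 and 0.418 of the M-CSF alone level. With 6 arrays and 522 genes compared, these values of r say nothing of shared function or control.
By correlation of the log2 intensities themselves, which mostly repeats the treatment difference, the likest were Cacnb3, Il4i1, Cd40, Wfdc17 and H2-M2 for Il6 (r of 0.992 to 0.998). They were Cacnb3, Aqp9, Dusp2, Ccl3 and Il1r1 for Ptgs2 (r of 0.990 to 0.994), and Rrp9, Acy1, Nme6, Plk3 and Bst1 for Tnf (r of 0.994 to 0.997).

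Around Tnf, few genes of the pathway could be followed. Of 22 listed genes of TNF ligands, receptors and proximal signalling, 2 had a name, Tnf itself and Traf1. Traf1 had an intensity of 104.18, 76.06 and 65.11 with M-CSF alone, and of 419.51, 536.09 and 333.32 with sRANKL. That is a 5.26-fold difference, larger than that of Tnf, with no overlap between the groups. Of 18 listed subunits and inhibitors of NF-kB, 3 had a name and all 3 were higher, with a median log2 fold change of 1.24, close to the 1.17 of all named genes, of which 341 of 522 were higher. They were inhibitors or modulators. Tnfaip3, the ubiquitin-editing brake A20, was 2.62-fold higher, Nfkbiz, a nuclear IkB protein that is needed for Il6 transcription in mouse macrophages, 2.37-fold, and Nfkbia, the inhibitor IkB-alpha, 2.00-fold. The TNF receptor genes had no name and were not analysed here.

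For IL-6 the ligand and its receptor chains differed in direction. Of 19 listed genes of the IL-6 family and STAT3 signalling 6 had a name, 3 higher and 3 lower, with a median log2 fold change of 0.07. Il6ra, the ligand-binding receptor chain, had an intensity of 1130.08, 1084.6 and 1103.88 with M-CSF alone, and of 545.83, 499.39 and 591.64 with sRANKL, which is 0.492 of the M-CSF alone level. Il6st, the signalling chain gp130, was at 1157.76, 1186.17 and 1266.89 with M-CSF alone, and at 428.15, 409.55 and 544.8 with sRANKL, which is 0.38. Neither chain had overlapping groups, and both varied far less between dishes than Il6. Lifr, the receptor of leukaemia inhibitory factor, which also pairs with gp130, was at 0.279. Downstream of the receptor, Socs3 was 3.84-fold and Jak2, a kinase of the pathway, 2.25-fold higher. The ratio of Socs3 was 3.72, 3.83 and 3.98 in Experiments 1, 2 and 3, and did not share the high value that Il6 had in Experiment 2. Of the rows tested, 33.2% were called lower and 11.1% were both called lower and at least 2-fold lower.

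In the prostaglandin pathway 4 of 22 listed genes had a name, 2 higher and 2 lower, with a median log2 fold change of 0.29. Ptges, the inducible synthase that turns the product of cyclooxygenase into PGE2, had an intensity of 165.36, 100.91 and 142.41 with M-CSF alone, and of 776.39, 671.99 and 460.59 with sRANKL. It was 4.66-fold higher, and like Ptgs2 it had its largest ratio in Experiment 2 (6.66) and its smallest in Experiment 3 (3.23). Hpgd, the dehydrogenase that inactivates prostaglandins, was at 230.3, 115.63 and 178.2 with M-CSF alone, and at 42.05, 33.04 and 30.52 with sRANKL. This is 0.208 of the M-CSF alone level, without overlap. Ptger3, the EP3 receptor of PGE2, was at 0.322, with ratios of 0.336, 0.306 and 0.324 in the 3 experiments. The 2 synthetic enzymes with a name were thus higher, and the catabolic enzyme and 1 receptor lower. The other receptors of PGE2 and all 9 listed genes of the leukotriene branch had no name and were not analysed here.

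**Figure D4:**
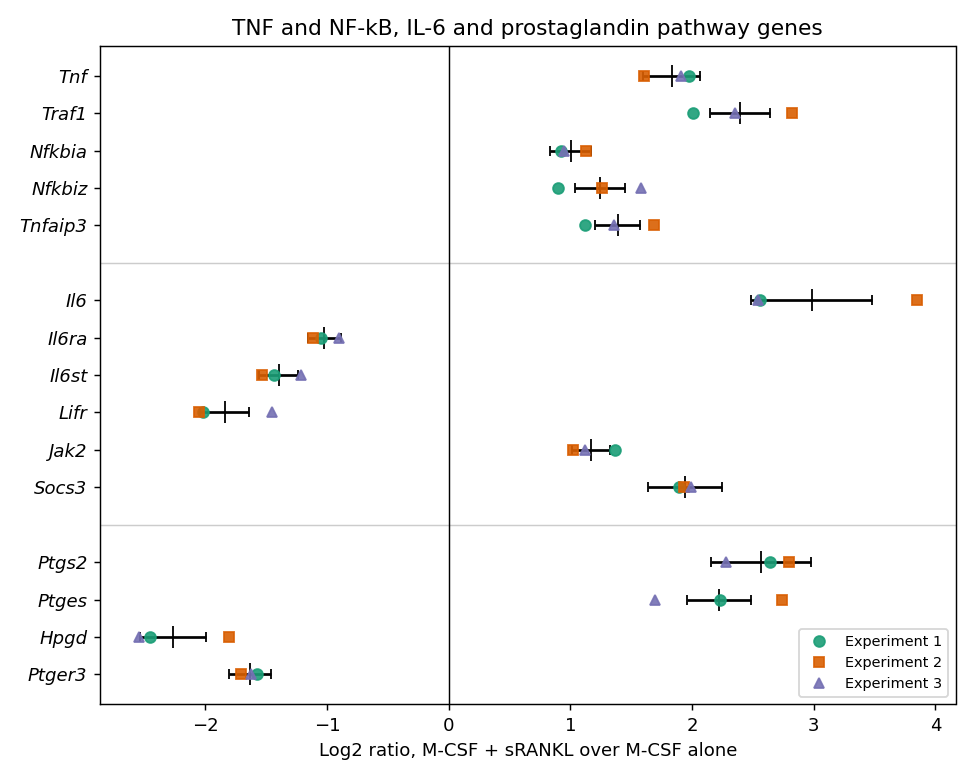
Log2 ratio of M-CSF + sRANKL over M-CSF alone for the named genes around Tnf (top), Il6 (middle) and Ptgs2 (bottom). Coloured symbols are the 3 experiments and black bars the fitted log2 fold change ± its standard error. Il6ra, Il6st, Lifr, Hpgd and Ptger3 lie left of 0 in every experiment and the other genes right of it, and the Experiment 2 square of Il6 lies furthest right, at 3.85.

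The other named cytokines on the lists used here were higher as well. A gene has a name only if it was on the list of changed genes. Of all 522 named genes 341 were higher, with a median log2 fold change of 1.17, while 44.9% of all fitted rows were called higher. The counts that follow, those of cell type markers included, are to be read against these shares. Of 20 further cytokines listed as promoting osteoclast formation 9 had a name and all 9 were higher, with a median log2 fold change of 2.81. They ranged from Ccl3 at 2.46-fold to Ccl7 at 24.9-fold, with Ccl5 at 10.2-fold, Il1a, an IL-1 ligand, at 10.1-fold, Ccl2 at 9.06-fold and Csf1, which encodes M-CSF, at 2.62-fold. Of 27 listed early-response genes of macrophages 13 had a name and all 13 were higher, with a median of 1.61. The largest were Ccl12, a monocyte chemokine, at 61.5-fold, and then Ccl7, Ccl5 and Il1a. Il1a, Ccl3, Ccl4, Ccl5, Ccl7, Cxcl2 and Cxcl10 stand on both of these lists, so the counts overlap. Of 16 cytokines and receptors listed as restraining osteoclast formation 1 had a name. Il1rn, the IL-1 receptor antagonist, was 8.13-fold higher, with intensities of 179.33, 134.02 and 145.4 with M-CSF alone and of 1422.96, 1133.54 and 1164.56 with sRANKL. Of 14 listed regulators of cytokine mRNA stability only Dusp2, a MAP kinase phosphatase, had a name, at 2.30-fold. Members of these lists without a name were not analysed, so the counts are not shares of the pathways.

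Markers of osteoclasts and of neutrophils moved in the same direction as the mediators. Of 16 listed osteoclast markers 6 had a name and all 6 were higher (against 341 of 522 named genes), with a median log2 fold change of 2.44 and a summed intensity of 610 to 977 with M-CSF alone and of 5391 to 7376 with sRANKL. The protease Mmp9 was 15.8-fold, Acp5, which encodes TRAcP, 11.0-fold, Ctsk, the cathepsin K gene, 8.98-fold and Atp6v0d2, a proton pump subunit, 3.28-fold higher. Of 18 listed markers of neutrophils and granulocyte precursors 6 had a name, Mpo, Prtn3, Ctsg, Stfa1, Cstdc5 and Fpr1, and all 6 were higher, with a median of 2.53. Fpr1 was 34.6-fold, Cstdc5 16.7-fold, Stfa1 7.79-fold and Ctsg 4.26-fold higher. Their summed intensity was 1572 to 2777 with M-CSF alone and 10058 to 14141 with sRANKL. The 2 monocyte and macrophage markers, Ccr2 and Apoe, were at 0.49 and 0.106 of their control level, with a median log2 fold change of -2.13 and a summed intensity of 14086 to 16592 with M-CSF alone and of 2760 to 3938 with sRANKL. Of 12 dendritic cell markers Ccr7 was 5.25-fold higher and Cd209a was at 0.147 of its control level, and of 14 stromal markers Dcn, at an intensity of 45.1 to 60.6 and 105 to 186, was 2.66-fold higher. No marker of mast cells and basophils, T and NK cells or B cells had a name. The part of these cell types in the levels of Tnf, Il6 and Ptgs2 was not tested.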

How the data were processed

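RNA of 6 dishes was hybridised to Affymetrix GeneChip arrays (Mouse Gene 1.0 ST). The authors deposited linear intensities made with RMA in R 2.71 (submitters' processing notes) for 2890 probe sets, kept by a filter that is not given in the sources used here. RMA equalises the distributions of the arrays and shrinks differences of dim probe sets. The authors' deposited list of 656 changed probe sets was used only for names and positions. It also holds their group means, fold changes and p-values, which were not used. Symbols (553 probe sets) were updated by Entrez number against RefSeq (GRCm38.p6), in which 547 were found. Per named gene the probe set with the highest mean was kept, leaving 2859 rows. Sample records and methods differ in whether the density gradient came before or after the M-CSF culture.

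Log2 intensities were fitted with limma 3.58.1 in R 4.3.3 (lmFit, eBayes), with the group as the only term. P-values were adjusted over all rows (Benjamini-Hochberg, threshold 0.05). The code was tested on simulated data. Python 3.11.15, numpy 2.4.6, pandas 2.3.3 and matplotlib 3.10.9 served for the rest. Dishes of an experiment came from 1 pool, so the experiment pairs them. The correlation of their deviations over all rows was 0.605, 0.564 and 0.645 in Experiments 1, 2 and 3. For dishes of different experiments it was -0.439 to -0.141. The deviations of a group sum to 0, which pulls these values below 0 once partners correlate, so they add nothing. Precision is limited by having 3 arrays per group. Genes named were the mediators, the 5 likest by each of 2 measures, and up to 4 of each list with the largest change (all where no more had a name), with a few more list members named after their values were seen. A gene left out of the marker lists is not reported here. Members, lists and motifs were chosen with earlier results of these data, or the sequences, known. Alternatives were blocks, scalings, filters, the t-test of the methods, arithmetic means, and arrays or experiments left out.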

Additional observations from a re-analysis of the deposited data

How the results depend on the processing

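The log2 fold changes of Tnf, Il6 and Ptgs2 kept their direction and moved by less than the pooled within-group SD of log2 intensity (0.33, 0.80 and 0.65) in every alternative that gave a value. With 1 array left out they were between 1.67 and 2.05 for Tnf, 2.61 and 3.50 for Il6, and 2.29 and 2.99 for Ptgs2. Centring each array on its median shifted the median of all rows by -0.15 and gave 1.68, 2.83 and 2.42, and quantile normalization (a shift of -0.21) gave 1.57, 2.73 and 2.40. All 65 genes of the lists and likeness search kept their direction under both. With the experiment as a replicate block the estimates were the same and the standard errors smaller, at 0.14, 0.24 and 0.15, and 2613 rows were called in place of 2235. A filter at a mean log2 of 7 removed Il6, and one at 8 also Ptgs2. The filter at 8, with fewer rows tested, left 1372 called rows, 442 of them changed at least 2-fold against 776. Without both arrays of Experiment 3, 917 rows were called, and with 1 array left out 1864 to 2348, of which 713 to 999 were changed at least 2-fold. The correlation of deviations between Il6 and Ptgs2 was between 0.79 and 0.98 with 1 array left out. The lowest value was that without the sRANKL array of Experiment 3. That of Tnf with Il6 was 0.20 to 0.98, and of Tnf with Ptgs2 0.27 to 0.85, so both rest on single arrays. With centring they were 0.59 and 0.66, and for Tnf and Il6 0.62 after quantile normalization. Leaving out arrays for the correlations was chosen after the data were seen. The causes of these shifts were not tested. Depth is not a measure here, and the dim control values of Il6 limit its fold.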
